A study of Homo sapiens with 34 samples.

Results

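Metallothionein genes were followed through every array probe annotated to one of 9 member symbols: MT1A, MT1B, MT1E, MT1F, MT1G, MT1H, MT1M, MT1X and MT2A. Of the 9 members, 8 have a probe, and together they have 10 of the 47230 probes on the array; MT1E and MT1H have 2 each, and the probe annotation used here lists none for MT1A. All 8 lie on chromosome 16. The arrays come from 3 human liver cancer cell lines, HepG2, SNU398 and SNU475. The treated groups received 3 daily doses of SGI-110 (guadecitabine, a dinucleotide that releases the DNA methyltransferase inhibitor decitabine) at 100 nM, 72 h in all, and were harvested at later days. HepG2 and SNU398 were sampled at days 3, 10, 17 and 24, and SNU475 at days 3, 10, 17, 24, 31 and 56. The reference of each line is its own cells before treatment. Each of the 17 groups holds 2 arrays, 34 in all, and the labels do not say whether those 2 come from separate cultures, so a p-value measures only a spread between arrays that may be technical. Untreated cells were taken at the start alone, so treatment and time in culture cannot be told apart.

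Metallothioneins are small, cysteine-rich proteins that bind zinc and copper and, on exposure, cadmium. In the liver they store zinc and buffer metals and oxidants. Their genes stand in one cluster, and the zinc-sensing factor MTF1 activates them through short metal response elements in their promoters. Several members are also known to be silenced by promoter methylation in tumours, liver cancer among them. MT2A is the widely expressed member. MT1E, MT1F, MT1G, MT1H, MT1M and MT1X are copies of the MT1 type that differ in how tightly they are held to particular cell types.

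The metal response elements are what the promoters of these genes are known for, so the 250 bases before the annotated start are shown for the 4 members with an entry in the RefSeq promoter table (GRCh38.p14). All 4 are on the plus strand, printed 5′ to 3′, with each match to TGCACNC or TGCGCNC on either strand in capitals. MT2A is at chr16:56608334-56608583, MT1B at chr16:56651636-56651885, MT1H at chr16:56669564-56669813 and MT1X at chr16:56682220-56682469.
MT2A: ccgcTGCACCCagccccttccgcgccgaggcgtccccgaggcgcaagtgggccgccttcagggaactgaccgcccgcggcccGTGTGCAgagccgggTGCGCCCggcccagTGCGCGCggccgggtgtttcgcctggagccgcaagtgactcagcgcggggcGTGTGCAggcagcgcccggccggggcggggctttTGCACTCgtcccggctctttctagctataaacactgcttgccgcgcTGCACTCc
MT1B: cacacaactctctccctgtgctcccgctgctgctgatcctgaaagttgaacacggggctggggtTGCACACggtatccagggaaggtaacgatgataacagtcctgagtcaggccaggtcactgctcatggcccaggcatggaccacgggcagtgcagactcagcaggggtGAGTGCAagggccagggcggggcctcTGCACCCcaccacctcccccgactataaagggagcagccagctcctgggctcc
MT1H: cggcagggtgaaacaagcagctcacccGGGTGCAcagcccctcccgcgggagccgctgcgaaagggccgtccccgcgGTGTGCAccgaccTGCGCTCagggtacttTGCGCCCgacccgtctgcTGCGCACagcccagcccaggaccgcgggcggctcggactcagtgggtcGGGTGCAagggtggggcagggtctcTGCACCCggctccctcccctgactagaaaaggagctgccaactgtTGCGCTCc
MT1X: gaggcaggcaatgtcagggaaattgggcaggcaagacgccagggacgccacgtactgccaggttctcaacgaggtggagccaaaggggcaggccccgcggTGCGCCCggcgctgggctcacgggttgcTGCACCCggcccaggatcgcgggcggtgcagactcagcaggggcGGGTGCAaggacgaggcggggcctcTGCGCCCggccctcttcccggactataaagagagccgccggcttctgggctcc

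MT2A has 7 matches, MT1B 3, MT1H 8 and MT1X 4. Of 35116 promoter windows of this length in the table, 24.8% hold at least 1 match, 1.58% at least 3, 0.37% at least 4, 0.0313% at least 7 and 0.0171% at least 8. The core of the antioxidant response element, TGACNNNGC on either strand, occurs once in MT2A, MT1B and MT1X and not in MT1H, and 10.9% of all windows hold it. A TATA box (TATAAA, sense strand), held by 6.8% of windows, is present in MT2A, MT1B and MT1X. CpG pairs, the sites of DNA methylation, number 32 in MT2A, 22 in MT1H, 22 in MT1X and 7 in MT1B, against a median of 11 over all windows. At least 32 are held by 9.52% of windows, at least 22 by 28% and at least 7 by 58.9%. These matches describe letters only, and binding and methylation were not measured on these arrays.

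**Figure D1:**
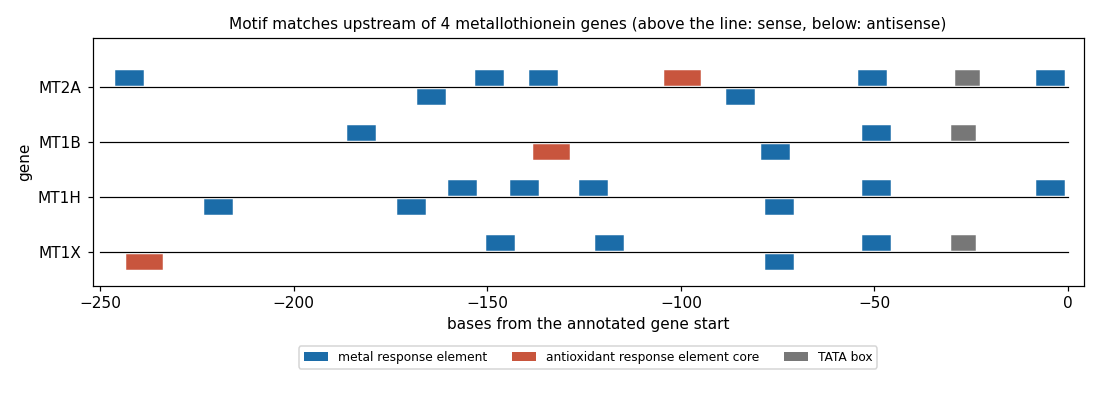
Position of each motif match in the 250 bases before the annotated start of MT2A, MT1B, MT1H and MT1X (x axis, bases from the start; boxes above a line are on the sense strand, below it on the antisense strand). The metal response element is found 7, 3, 8 and 4 times in this order of genes, and each of the 4 genes holds matches on both strands in the 100 bases nearest the start.

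Levels are given as the log2 of the normalized probe intensity, per array and probe, and values of different probes are not compared with each other because each probe has its own brightness. Background was set at 6.97, and a group was above it for a probe where neither of its arrays fell short. The labels' cell types were checked against marker genes: 6 of 6 hepatocyte markers on the array were above background in untreated HepG2, against 3 in SNU398 (AFP, APOB and TTR never above) and 3 in SNU475 (APOA1, APOB and TTR never above). The log2 of their summed intensity ran from 18.0 to 18.2 in HepG2, 9.84 to 10.3 in SNU398 and 9.71 to 10.6 in SNU475. Of 4 mesenchymal markers, 3 were above background in untreated HepG2, 3 in SNU398 and 4 in SNU475. The log2 of their summed intensity ran from 12.1 to 12.5, 15.0 to 15.6 and 15.3 to 15.9 in this order of lines. Of 5 blood cell markers on the array, 1 was above background in each untreated line. In HepG2 it was LYZ, lysozyme, at 15.11 on both untreated arrays and lower at days 10 (-0.43), 17 (-1.06) and 24 (-0.79). In SNU398 it was HBB and in SNU475 MS4A1. The log2 of the list's summed intensity ran from 13.9 to 15.3 in HepG2, 8.92 to 9.07 in SNU398 and 8.87 to 9.09 in SNU475. PTPRC and CD3E were never above background. Of 3 endothelial markers, none was above background in an untreated line and CDH5 in no group. In treated HepG2, VWF was above background from day 3 on (at least 1.35-fold, 2.79-fold, 1.97-fold and 1.58-fold over untreated cells at days 3, 10, 17 and 24) and PECAM1 at days 17 and 24. The log2 of the summed intensity of the 3 endothelial markers ran from 7.90 to 9.17 in HepG2. The part of these markers in the HepG2 results below was not tested. Correlations between the 2 arrays of a group ran from 0.9906 to 0.9947. The deposited arrays fall into 3 sets by their medians. Treated SNU398 and untreated SNU398 lie in different sets, as do SNU475 from day 10 on and untreated SNU475, and for those comparisons the array set and the treatment cannot be told apart. HepG2 lies wholly in 1 set. In bulk RNA, fewer cells of a type and less RNA per cell cannot be told apart.

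**Figure D2:**
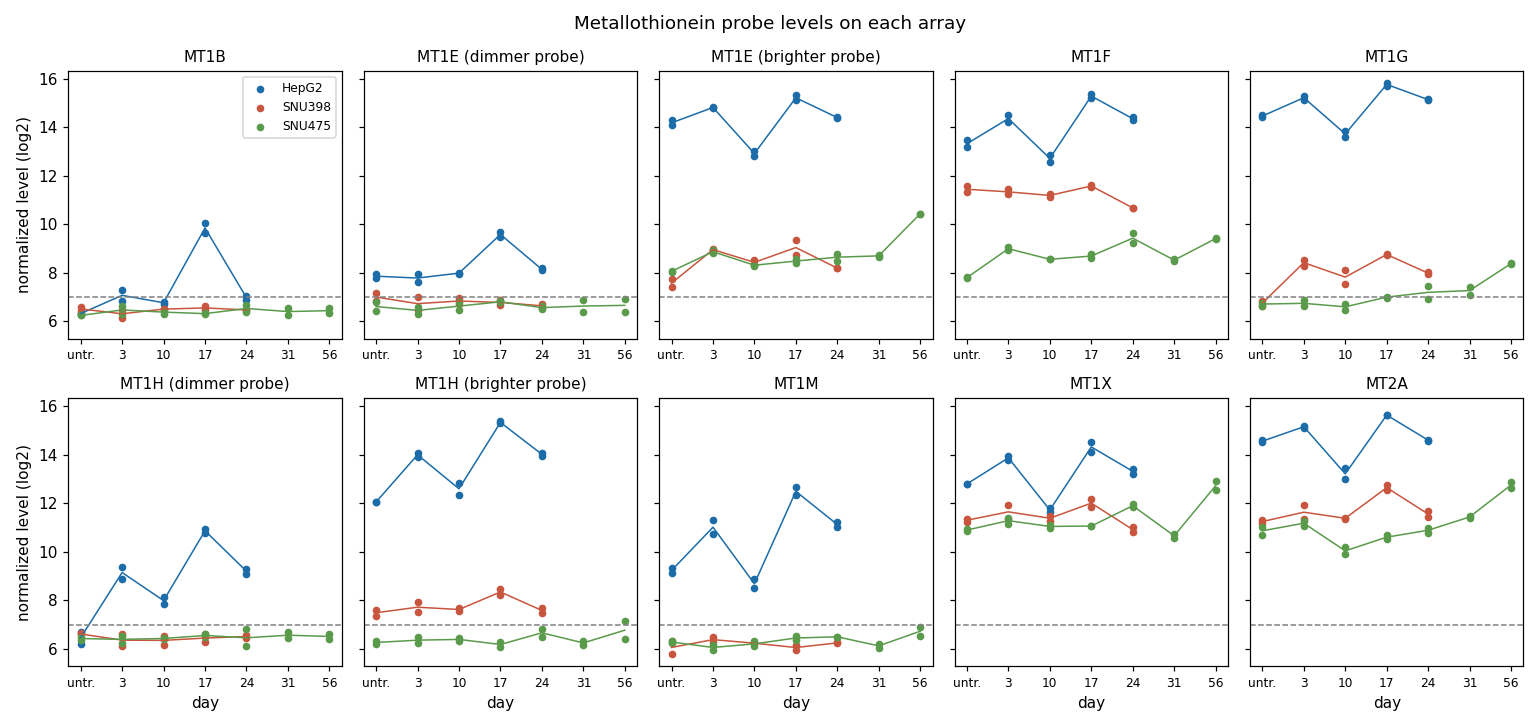
Normalized log2 level of each metallothionein probe on every array (points) and the mean of each group (lines), by sampled day, with untreated cells at the left and the background threshold of 6.97 dashed. On each shared day HepG2 lies above the other lines for each probe above background there in untreated cells, and it dips at day 10 between days 3 and 17 for all but the dimmer MT1E probe, which is high at day 17 alone.

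Before treatment the family was far brighter in HepG2 than in the other lines. Of the 5 member probes above background in both lines, 5 were higher in untreated HepG2 than in untreated SNU398, where 26.5% of all 20999 tested probes were higher and 30.0% lower. Against untreated SNU475 it was 4 of 4, with 27.4% of all probes higher. MT1G, a member known for silencing in tumours, read 14.50 and 14.42 in untreated HepG2, against 6.64 and 6.85 in SNU398 and 6.64 and 6.76 in SNU475, where it was not above background. That is at least 179-fold higher in HepG2 than in each of the other lines, a bound taken against the dimmest level that counts as measured. The brighter MT1E probe read 14.28 and 14.07 in HepG2, against 7.39 and 7.74 in SNU398 and 8.04 and 8.07 in SNU475. Its log2 difference was 6.61 ± 0.15 (SE, n = 2 arrays each) over SNU398 and 6.12 ± 0.15 over SNU475.

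For MT2A and MT1X the fitted differences were smaller in size. MT2A read 14.60 and 14.51 in untreated HepG2, against 11.17 and 11.31 in SNU398 and 10.69 and 11.02 in SNU475, log2 differences of 3.32 ± 0.17 and 3.70 ± 0.17. MT1X differed by 1.5 ± 0.17 from SNU398 and by 1.90 ± 0.17 from SNU475. MT1F set the other 2 lines apart from each other: it read 13.47 and 13.17 in HepG2, 11.31 and 11.57 in SNU398 and 7.76 and 7.83 in SNU475. MT1M was at least 4.74-fold higher in HepG2 than in either line, and the brighter MT1H probe 23.7-fold higher than in SNU398 and at least 33.7-fold higher than in SNU475.

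Between untreated SNU398 and untreated SNU475, 2 of 4 member probes were higher and 1 lower in SNU398, beside 30.2% and 28.2% of all probes. MT1F was 12.5-fold higher in SNU398 (adjusted p = 4.75e-19). MT1X was 1.32-fold higher (adjusted p = 0.0422), and the brighter MT1E probe was lower by a log2 difference of -0.49 ± 0.15 (adjusted p = 0.00752). MT2A differed by 0.38 ± 0.17 (adjusted p = 0.0518), which missed the threshold although the arrays of the 2 lines did not overlap. Untreated SNU475 lies in another array set than untreated SNU398 and untreated HepG2, and in these comparisons line and set cannot be told apart. Without replicate 1 of untreated SNU398, 1 of the 4 passed, MT1F. MT1X also lost its call without replicate 2 of untreated SNU398 (0.35) and without replicate 1 (0.35) or 2 (0.46) of untreated SNU475, and MT2A gained one without the second of these (0.55).

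In HepG2, 7 of 8 counted member probes were higher than in untreated cells at day 3, beside 7.16% of all tested probes. At day 10, 6 were lower and 1 higher, beside 14.6% and 16.4%, and 8 were higher at day 17, beside 12.9%, and 5 at day 24, beside 12.2%. The exceptions were the dimmer MT1E probe, which did not pass at days 3 (-0.08) and 10 (0.13), and the brighter MT1H probe, which was higher at day 10. MT2A read 14.60 and 14.51 in untreated cells, 15.19 and 15.11 at day 3, 12.98 and 13.43 at day 10, 15.61 and 15.65 at day 17, and 14.58 and 14.61 at day 24. Both day 10 arrays lay below every other HepG2 array, and both day 17 arrays above every other. MT1X followed the same course, with 12.78 and 12.80 in untreated cells, 13.94 and 13.80 at day 3, 11.64 and 11.80 at day 10, 14.53 and 14.10 at day 17, and 13.20 and 13.42 at day 24. For MT1F the readings were 13.47 and 13.17 in untreated cells, 14.51 and 14.20 at day 3, 12.56 and 12.87 at day 10, 15.35 and 15.21 at day 17, and 14.42 and 14.27 at day 24. At day 24 both MT1F arrays stayed above both untreated arrays, while the MT2A arrays of day 24 overlapped the untreated ones.

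The brighter MT1H probe and MT1M had the largest fitted changes against untreated cells at days 3, 17 and 24, though not at day 10, among the counted HepG2 probes. The brighter MT1H probe read 12.05 on both untreated arrays, 14.08 and 13.90 at day 3, 12.35 and 12.84 at day 10, 15.37 and 15.29 at day 17, and 13.95 and 14.07 at day 24. MT1H stayed above its untreated arrays on all 4 days. MT1M read 9.12 and 9.32 in untreated cells, 11.29 and 10.72 at day 3, 8.49 and 8.86 at day 10, 12.65 and 12.32 at day 17, and 11 and 11.23 at day 24. MT1G read 14.50 and 14.42 in untreated cells, 15.29 and 15.13 at day 3, 13.60 and 13.84 at day 10, 15.82 and 15.70 at day 17, and 15.16 and 15.11 at day 24. At day 17 MT1G ranked 13 and 48 among the 47230 probes, with deposited intensities of 61285 and 57700 against an array highest of 65578 and 67300, so there is little room above it on this scale, and its change on that day cannot be ranked against that of MT1H or MT1M. MT2A ranked 74 and 64 on that day, with intensities of 54477 and 56587, and the same holds for its change. The brighter MT1H probe ranked 131 and 149, MT1F 135 and 166 and the brighter MT1E probe 143 and 187, so this limit may touch them too.

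None of the 8 was lower at day 3, beside 6.09% of all probes. The median log2 change of the 8 was 0.90 at day 3, -0.67 at day 10, 1.62 at day 17 and 0.60 at day 24, against medians from -0.02 to 0.01 over all tested probes. These 4 comparisons share the untreated arrays. The largest fitted changes at day 17 were 3.28 ± 0.19 for the brighter MT1H probe (9.72-fold, adjusted p = 3.79e-14) and 3.26 ± 0.18 for MT1M (9.61-fold, adjusted p = 2.71e-14). MT1F rose by 1.96 ± 0.14, MT1X by 1.53 ± 0.17, MT1G by 1.30 ± 0.17 and MT2A by 1.08 ± 0.17 on that day. The brighter MT1H probe was the 1 that was higher at day 10 (0.54 ± 0.19, adjusted p = 0.0247), while MT2A fell by 1.35 ± 0.17 and MT1X by 1.07 ± 0.17. At day 24 MT2A (0.04 ± 0.17) and both MT1E probes (0.22 ± 0.15 and 0.28 ± 0.20) did not pass the test.

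Several of the smaller HepG2 calls did not pass with 1 array fewer. The day 3 call of MT2A (0.59 ± 0.17, adjusted p = 0.0158) did not pass without either untreated array (0.64 and 0.55) or without day 3 replicate 1 (0.55), and that of the brighter MT1E probe (0.63 ± 0.15) did not pass without untreated replicate 2 (0.53). At day 10 the brighter MT1H probe lost its call without either untreated array (0.55 and 0.54) or day 10 replicate 2 (0.30). MT1F (-0.60 ± 0.14) lost it without untreated replicate 1 or day 10 replicate 1 (both -0.45), and MT1M (-0.54 ± 0.18) without untreated replicate 2 (-0.44) or day 10 replicate 1 (-0.36). MT1X at day 24 (0.52 ± 0.17) lost it without either untreated array (0.51 and 0.53) or day 24 replicate 2 (0.41). The day 17 count stayed at 8 of 8 whichever array was left out.

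**Figure D3:**
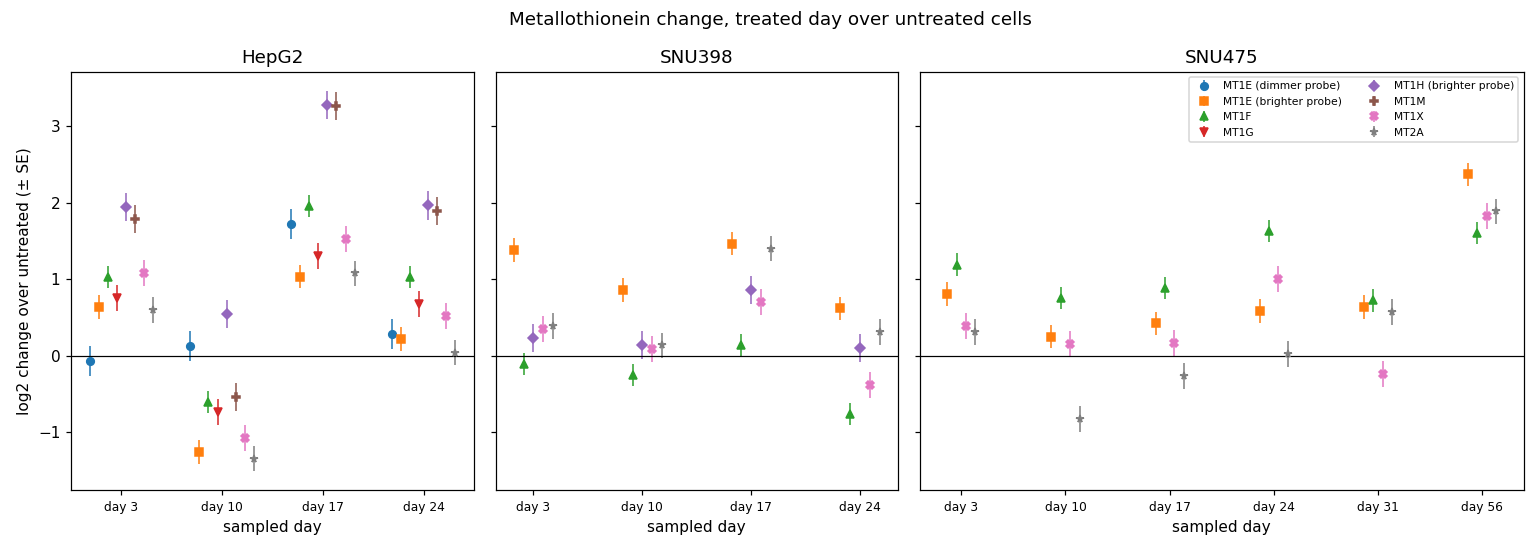
Log2 change of each metallothionein probe, treated day over untreated cells of the same line, with bars of 1 SE, for the probes above background in untreated cells of that line. In HepG2 the points lie mostly above 0 at day 3, mostly below it at day 10 and all above it at day 17, where they reach 3.28.

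Comparing each HepG2 day with the one before it left the untreated arrays out. In each line, neighbouring steps share the arrays of the day between them, so their calls are not independent. From day 3 to day 10, 7 of 8 member probes fell, beside 12.3% of all probes, with a median log2 change of -1.77 against 0.01 over all probes. MT1M had the largest decrease, at -2.33 ± 0.18 (adjusted p = 3.22e-11), and MT1X changed by -2.15 ± 0.17. At day 17 all 8 were higher than at day 10, beside 12.2% of all probes, with a median of 2.49. MT1M rose by 3.81 ± 0.18 (14-fold, adjusted p = 3.91e-15), the brighter MT1H probe by 2.74 ± 0.19, MT1X by 2.60 ± 0.17 and MT2A by 2.42 ± 0.17. At day 24 all 8 were lower than at day 17, beside 4.40% of all probes (3.11% were higher), with a median of -1.02 and a range of -1.44 to -0.63. The smallest of these, MT1G (-0.63 ± 0.17, adjusted p = 0.0205), did not pass when any one of the 4 arrays was left out (-0.69 to -0.56).

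The 2 MT1E probes disagreed in HepG2. The brighter probe read 14.28 and 14.07 in untreated cells, 14.84 and 14.78 at day 3, 12.79 and 13.04 at day 10, 15.31 and 15.11 at day 17, and 14.39 and 14.40 at day 24. The dimmer probe read 7.77 and 7.93 in untreated cells, 7.95 and 7.60 at day 3, 8.0 and 7.96 at day 10, 9.49 and 9.66 at day 17, and 8.09 and 8.18 at day 24. At day 10 the brighter probe was lower than in untreated cells (-1.26 ± 0.15, adjusted p = 1.72e-07), while the dimmer probe stood at 0.13 ± 0.20 (adjusted p = 0.678). At day 17 both rose, by 1.03 ± 0.15 and 1.72 ± 0.20. Members of this family have near-identical transcripts, and which of them each probe binds was not tested.

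MT1B and the dimmer MT1H probe were above background in HepG2 only after treatment, so they had to be higher there, and no count includes them. MT1B read 6.29 and 6.34 in untreated HepG2, 7.30 and 6.82 at day 3, 6.80 and 6.72 at day 10, 10.04 and 9.64 at day 17, and 6.88 and 7.05 at day 24. It was above background at day 17 alone, at least 7.3-fold higher than in untreated cells. The dimmer MT1H probe read 6.20 and 6.70 in untreated cells, 9.38 and 8.89 at day 3, 7.82 and 8.14 at day 10, 10.93 and 10.78 at day 17, and 9.08 and 9.30 at day 24. Its bounds over untreated cells were at least 4.48-fold at day 3, 2.01-fold at day 10, 14.8-fold at day 17 and 4.65-fold at day 24. Neither MT1B nor this probe was above background in SNU398 or SNU475.

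Of the 5 member probes above background in untreated SNU398 cells, the brighter MT1E probe was the one called higher on all 4 days. The dimmer MT1E probe was above background in no SNU398 or SNU475 group. Its SNU398 means were 6.99 in untreated cells and 6.72, 6.83, 6.77 and 6.63 at days 3, 10, 17 and 24. The brighter MT1E probe read 7.39 and 7.74 in untreated cells, 8.93 and 8.97 at day 3, 8.50 and 8.35 at day 10, 9.36 and 8.71 at day 17, and 8.19 and 8.18 at day 24. Every treated array lay above both untreated arrays, with log2 changes of 1.38, 0.86, 1.47 and 0.62 (SE 0.15 each). MT1G read 6.64 and 6.85 in untreated cells, where it was not above background, 8.54 and 8.28 at day 3, 7.54 and 8.09 at day 10, 8.77 and 8.73 at day 17, and 7.94 and 8.02 at day 24. Its bounds were at least 2.71-fold, 1.79-fold, 3.42-fold and 2.01-fold over untreated cells at days 3, 10, 17 and 24. As untreated and treated SNU398 lie in different array sets, an offset between the sets cannot be told apart from these changes.

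MT2A, MT1X and MT1F passed the test on fewer SNU398 days. MT2A read 11.17 and 11.31 in untreated cells, 11.34 and 11.91 at day 3, 11.40 and 11.35 at day 10, 12.74 and 12.54 at day 17, and 11.67 and 11.43 at day 24. It was higher at day 17 by 1.40 ± 0.17 (2.64-fold, adjusted p = 1.67e-07), and its other changes, 0.14 to 0.39, did not pass. MT1F read 11.31 and 11.57 in untreated cells, 11.43 and 11.23 at day 3, 11.24 and 11.12 at day 10, 11.60 and 11.55 at day 17, and 10.66 and 10.67 at day 24. It was lower at day 24 by a log2 change of -0.77 ± 0.14 (adjusted p = 3.33e-04). The brighter MT1H probe and MT1X were higher at day 17, by 0.86 ± 0.19 and 0.71 ± 0.17.

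By count, 1 of 5 SNU398 member probes was higher at day 3, beside 15.8% of all probes (15.0% were lower), and 1 of 5 at day 10, beside 17.7% (14.7% lower). At day 17 it was 4 of 5, beside 16.5% (15.1% lower), with a median log2 change of 0.86 against 0.01 over all probes. At day 24, 1 was higher and 1 lower, beside 9.71% and 8.15%. A count of 1 of 5 is near the share among all probes and is no result about the family. Without day 3 replicate 1, 3 of 5 passed at day 3, MT2A (0.67) and MT1X (0.64) being added. Without untreated replicate 1, 1 of 5 passed at day 24, as the brighter MT1E probe (0.45) no longer did. MT1X at day 17 did not pass without day 17 replicate 1 (0.53).

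The treated SNU398 days all lie in 1 array set, so their comparison with each other does not cross sets. At day 10, 1 of 5 member probes was lower than at day 3, the brighter MT1E probe (-0.52 ± 0.15), beside 14.6% of all probes. At day 17 all 5 were higher than at day 10, beside 11.4% of all probes, with a median log2 change of 0.62 and a range of 0.39 to 1.26. At day 24 all 5 were lower than at day 17, beside 4.41% of all probes, with a median of -0.90 and a range of -1.09 to -0.76. MT2A had the largest increase, 1.26 ± 0.17 (adjusted p = 1.16e-06), and MT1X a decrease of -1.09 ± 0.17 (adjusted p = 9.33e-05). These counts moved when single arrays were left out. For day 10 over day 3, 3 of 5 passed without day 3 replicate 1, and the brighter MT1E probe no longer passed without day 10 replicate 2 (-0.45). For day 17 over day 10, 3 of 5 passed without either day 10 array and 1, MT2A, without day 17 replicate 1. For day 24 over day 17, 3 of 5 passed without day 17 replicate 1. Without day 3 replicate 2, MT2A (0.03), MT1X (0.03) and the brighter MT1H probe (0.11) had the opposite sign for day 10 over day 3, none of them called with or without that array.

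In SNU475 the brighter MT1E probe, MT1X and MT2A had their highest levels at the last sampled day. MT2A read 10.69 and 11.02 in untreated cells, 11.06 and 11.28 at day 3, 9.89 and 10.18 at day 10, 10.69 and 10.50 at day 17, 10.78 and 10.99 at day 24, 11.48 and 11.37 at day 31, and 12.62 and 12.88 at day 56. The day 10 arrays were the lowest and the day 56 arrays the highest. MT1X read 10.84 and 10.94 in untreated cells, 11.15 and 11.40 at day 3, 10.98 and 11.10 at day 10, 11.04 and 11.07 at day 17, 11.96 and 11.82 at day 24, 10.73 and 10.58 at day 31, and 12.53 and 12.91 at day 56. MT1X was high at days 24 and 56 and near its untreated level at day 31. The brighter MT1E probe read 8.04 and 8.07 in untreated cells, 8.92 and 8.80 at day 3, 8.33 and 8.28 at day 10, 8.55 and 8.41 at day 17, 8.78 and 8.50 at day 24, 8.74 and 8.64 at day 31, and 10.42 and 10.44 at day 56.

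MT1F was the member higher than in untreated SNU475 cells on all 6 treated days. It read 7.76 and 7.83 in untreated cells, 9.05 and 8.92 at day 3, 8.55 and 8.54 at day 10, 8.61 and 8.76 at day 17, 9.21 and 9.63 at day 24, 8.48 and 8.55 at day 31, and 9.37 and 9.43 at day 56. The log2 changes were 1.19, 0.76, 0.89, 1.63, 0.72 and 1.61 in the order of days (SE 0.14 each), and no treated array overlapped the untreated ones. The day 3 comparison lies within 1 array set, and MT1F passed there with an adjusted p of 1.76e-06. MT1G was above background at days 31 and 56 alone, with 7.09 and 7.43, then 8.35 and 8.39, at least 1.22-fold and at least 2.64-fold over untreated cells. MT1M and the brighter MT1H probe were not above background on any day in SNU475.

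At day 3, 2 of 4 SNU475 member probes were higher than in untreated cells, beside 1.88% of all probes, and none was lower, beside 1.30%. At day 10, 1 was higher and 1 lower, beside 9.94% and 8.26%, the lower being MT2A (-0.83 ± 0.17, adjusted p = 5.60e-04). At day 17, 1 of 4 was higher, beside 7.19% (5.51% lower). At day 24 it was 3 of 4, beside 16.2% (15.2% lower), and at day 31 again 3 of 4, beside 6.61% (6.16% lower). At day 56 all 4 were higher, beside 20.4% of all probes, with a median log2 change of 1.86 against -0.05 over all probes. The day 56 changes were 2.37 ± 0.15 for the brighter MT1E probe (5.18-fold, adjusted p = 1.97e-13), 1.89 ± 0.17 for MT2A, 1.83 ± 0.17 for MT1X and 1.61 ± 0.14 for MT1F. Without day 31 replicate 1, 1 of 4 passed at day 31, as MT2A (0.51) and the brighter MT1E probe (0.59) no longer did. MT2A at day 31 (0.57 ± 0.17) also failed without untreated replicate 1 (0.40) or day 31 replicate 2 (0.62), and the brighter MT1E probe at day 24 without day 24 replicate 1 (0.44).

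Between SNU475 days, all 4 member probes were higher at day 56 than at day 31, beside 19.0% of all probes, with a median log2 change of 1.53 and a range of 0.89 to 2.07. Both of these days lie in 1 array set. MT1X rose by 2.07 ± 0.17 (4.19-fold, adjusted p = 3.89e-11) and the brighter MT1E probe by 1.74 ± 0.15. At day 31 against day 24, 1 was higher and 2 lower, beside 13.2% and 14.1%: MT2A rose by 0.55 ± 0.17, which did not pass without day 24 replicate 1 (0.44) or day 31 replicate 1 (0.49), while MT1X fell by 1.24 ± 0.17 and MT1F by 0.91 ± 0.14. At day 24 against day 17, 2 of 4 were higher, MT1F and MT1X, beside 5.66% (6.14% lower), and 1 without day 24 replicate 2, when MT1F (0.52) did not pass. At day 17 against day 10, limma called 0 of 4, 1 having an unadjusted p under 0.05, beside 0.181% of all probes higher and 0.290% lower. At day 10 against day 3, a comparison across array sets, 3 of 4 were lower, beside 7.48%. Of these, MT1F (-0.44 ± 0.14) failed without any one of the 4 arrays (-0.50 to -0.37), and the brighter MT1E probe (-0.56 ± 0.15) without day 3 replicate 1 or either day 10 array, each of which left 1 of 4, MT2A.

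**Figure D4:**
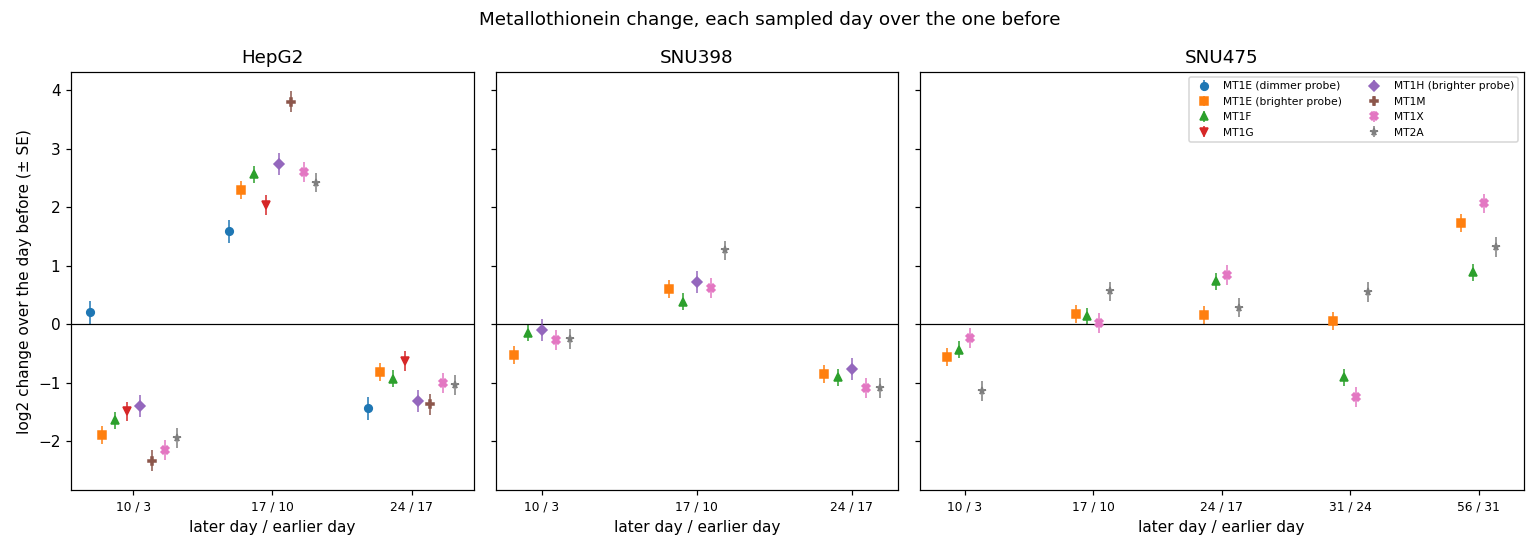
Log2 change of each metallothionein probe from one sampled day to the next (later day over earlier day), with bars of 1 SE, for the probes above background in untreated cells of that line. In HepG2 and SNU398 the probes shown rose at day 17 over day 10 and fell at day 24 over day 17, and in SNU475 all 4 rose at day 56 over day 31.

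Whether the lines differed in response was tested on the mean change over days 3, 10, 17 and 24. For HepG2 this mean joins days 3, 17 and 24, when counted probes were mostly higher, with day 10, when most were lower. Opposite changes offset each other in it, so it does not compare the courses of the lines day by day. HepG2 and SNU398 differed for 3 of 5 member probes, 2 with the higher change in HepG2 and 1 with the lower, beside 16.2% and 17.3% of all probes. The brighter MT1H probe changed by 1.60 ± 0.21 more in HepG2 (adjusted p = 6.22e-07) and MT1F by 1.11 ± 0.16 more (adjusted p = 4.44e-06), while the brighter MT1E probe had a difference of -0.93 ± 0.17 (adjusted p = 1.17e-04). The difference for MT2A, -0.47 ± 0.19, missed the threshold (adjusted p = 0.0538), and passed when SNU398 day 3 replicate 1 (-0.54), day 17 replicate 2 (-0.49) or day 24 replicate 2 (-0.50), or HepG2 day 10 replicate 2 (-0.52), was left out. Between HepG2 and SNU475, limma called 0 of 4 and 1 had an unadjusted p under 0.05, beside 11.5% of all probes in either direction, and the differences ran from -0.36 ± 0.17 to 0.28 ± 0.19. Between SNU398 and SNU475, 2 of 4 differed upward and 1 downward, beside 17.1% and 16.2%. MT1F changed less in SNU398 (-1.37 ± 0.16, adjusted p = 1.46e-07), and MT2A changed more (0.75 ± 0.19, adjusted p = 0.00241). The brighter MT1E probe also changed more in SNU398 (0.57 ± 0.17, adjusted p = 0.0115), which did not pass without replicate 1 of untreated SNU398 (0.40). Array sets and lines are entangled in all of these.

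Other metallothionein genes on the array gave little signal. MT4 was above background in no group, MT1L at HepG2 day 17 alone and MT1IP at SNU475 day 3 alone. MT3, the form known from brain, was not above background in HepG2 or SNU475. In SNU398 it read 6.33 and 6.26 in untreated cells, 6.44 and 6.74 at day 3, 7.0 and 6.93 at day 10, 7.51 and 7.46 at day 17, and 7.02 and 7.17 at day 24. It was above background at days 17 and 24, at least 1.43-fold and at least 1.09-fold over untreated cells. Of 9 tested genes flanking the cluster, limma called 0 in HepG2 at day 3 (2 with an unadjusted p under 0.05). At day 10, 1 of 9 was lower, beside 14.6% of all probes, at day 17, 2 were higher and 1 lower, beside 12.9% and 11.3%, and at day 24, 1 was lower, beside 11.9%. Between HepG2 days, 2 of 9 were lower at day 10 over day 3, 3 were higher at day 17 over day 10 and 2 were lower at day 24 over day 17, beside 12.3%, 12.2% and 4.40% of all probes. NUP93, a nuclear pore subunit encoded beside the cluster, was lower at day 10 (-0.76 ± 0.12). In SNU475, 1 of 9 neighbours was higher at day 3, beside 1.88% of all probes, 4 at day 10, beside 9.94%, with 1 lower, beside 8.26%, 3 each at days 17, 24 and 31, beside 7.19%, 16.2% and 6.61%, and 2 at day 56, beside 20.4%, with 2 lower, beside 24.8%. The largest change among them was that of CETP, the cholesteryl ester transfer protein, higher on all 6 treated days by 0.70 to 2.15.

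Genes of zinc handling were set beside the family. MTF1, the zinc sensor that activates metallothionein genes, passed in none of the 14 comparisons with untreated cells, its log2 changes running from -0.28 to 0.26. Between untreated cells it was lower in HepG2 than in SNU398 (-0.47 ± 0.13, limma adjusted p = 0.00381). It was also lower than in SNU475 (-0.38 ± 0.13, limma adjusted p = 0.0179), a comparison across array sets. SLC30A1, the zinc exporter of the cell surface that MTF1 also activates, was higher in SNU398 on all 4 days, by 1.25, 0.91, 1.02 and 0.45 (SE 0.13 each). It read 8.83 and 8.98 in untreated SNU398, 10.25 and 10.05 at day 3, 9.78 and 9.84 at day 10, 9.86 and 9.98 at day 17, and 9.35 and 9.36 at day 24. The second SLC30A1 probe gave 1.54, 1.13, 1.32 and 0.68 on the same days. In HepG2 the exporter was higher at day 10 (0.58 ± 0.13), when most metallothioneins were lower, and at day 17 (0.59 ± 0.13), and its second probe passed at day 17 alone (0.40 and 0.50). In SNU475 it was lower at days 10 (-0.56 ± 0.13) and 24 (-0.47 ± 0.13), where the second probe did not pass (-0.45 and -0.38). At day 56 the second probe was higher (0.58 ± 0.17) and the first did not pass (0.32 ± 0.13), and both rose at day 56 over day 31, by 0.43 and 0.84.

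SLC39A10, a zinc importer of the cell surface, moved opposite to most metallothionein probes from one HepG2 day to the next. It read 8.37 and 8.66 in untreated cells, 7.43 and 7.67 at day 3, 9.01 and 8.61 at day 10, 7.32 and 7.58 at day 17, and 8.19 and 8.04 at day 24. It was low on the days when the metallothioneins were high, days 3 and 17 (-0.97 ± 0.17 and -1.07 ± 0.17 against untreated cells). Its day 10 levels overlapped those of untreated cells. It rose by 1.26 ± 0.17 at day 10 over day 3, fell by 1.36 ± 0.17 at day 17 over day 10 and rose by 0.67 ± 0.17 at day 24 over day 17, all called. It was the importer with the largest called change in each of these 3 steps. Of 12 importers, 2 were higher and 0 lower in the first step, 2 and 2 in the second, and 1 and 0 in the third. The shares of all probes were 13.9% and 12.3%, 12.2% and 12.4%, and 3.11% and 4.40%. At day 3 against untreated cells, 1 importer was higher and 1 lower, beside 7.16% and 6.09%. As lists, 3 of 8 exporters and 3 of 12 importers were higher in HepG2 at day 10, and 3 and 5 at day 17, while 1 importer was lower at day 10 and 1 of each list at day 17. Over all probes, 16.4% were higher and 14.6% lower at day 10 and 12.9% and 11.3% at day 17. In SNU398 the importer with the largest change was SLC39A11, lower on all 4 days by -1.98 to -1.29.

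**Figure D5:**
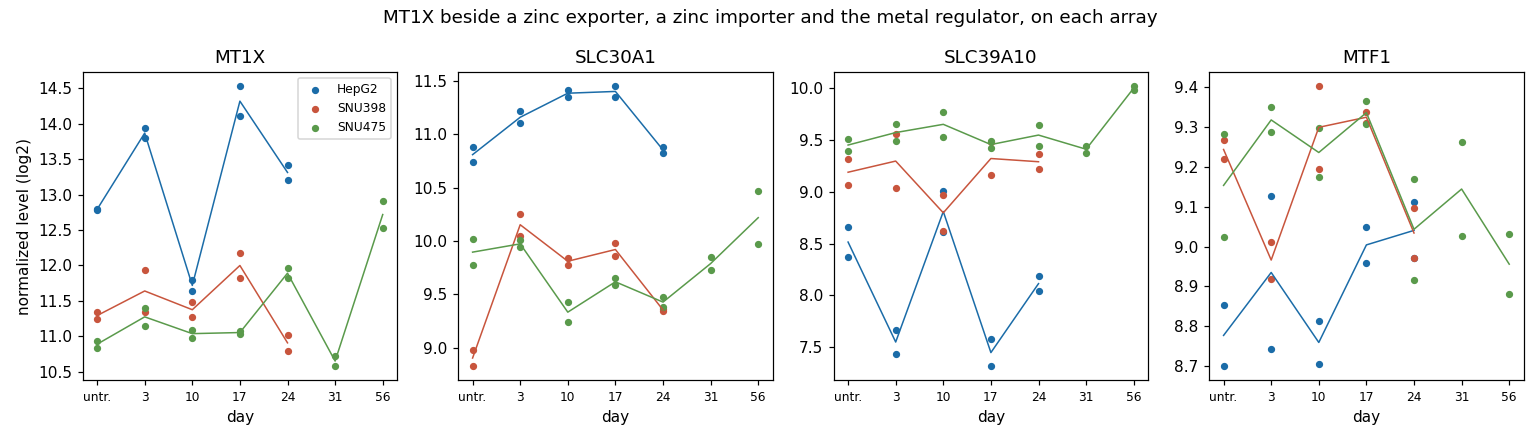
Normalized log2 level on every array (points) and group mean (lines), by sampled day with untreated cells at the left, for MT1X, the zinc exporter SLC30A1, the zinc importer SLC39A10 and the regulator MTF1, each on its own scale. In HepG2 SLC39A10 is low at days 3 and 17, where MT1X is high, and MTF1 stays between 8.70 and 9.13.

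Other stress genes, copper handling genes and glucocorticoid response genes were counted as lists. Between HepG2 days, 6 of 10 glucocorticoid response genes were higher and 1 lower at day 10 over day 3. The counts were 1 and 5 at day 17 over day 10, and 1 and 0 at day 24 over day 17. Those of 12 copper handling genes were 4 and 3, 3 and 2, and 1 and 0 in these steps. The shares of all probes were 13.9% and 12.3%, 12.2% and 12.4%, and 3.11% and 4.40%. Of 12 heat shock genes, 1 was higher and 1 lower in HepG2 at day 3, 3 and 1 at day 10, 1 and 1 at day 17, and 0 and 2 at day 24, with median log2 changes from -0.15 to 0.13. The shares of all probes higher and lower were 7.16% and 6.09% at day 3, 16.4% and 14.6% at day 10, 12.9% and 11.3% at day 17, and 12.2% and 11.9% at day 24. Of 12 targets of NRF2, the factor of the antioxidant response, 1 was higher and 1 lower at day 3, 2 and 4 at day 10, 4 and 1 at day 17, and 3 and 1 at day 24. In SNU398, 2 NRF2 targets were higher and 3 lower at day 3, 5 and 0 at day 10, 6 and 1 at day 17, and 3 and 1 at day 24. The heat shock counts there were 7 and 0, 5 and 1, 6 and 0, and 3 and 1 on the same days, beside 15.8%, 17.7%, 16.5% and 9.71% of all probes higher and 15.0%, 14.7%, 15.1% and 8.15% lower. The NRF2 target NQO1, a quinone reductase, was higher on all 4 days by 2.64 to 3.80, and the constitutive chaperone HSPA8 by 0.93 to 1.61. In SNU475 at day 56, when all 4 metallothionein probes were higher, 9 of 12 heat shock genes were lower and 2 higher. Of 12 NRF2 targets, 6 were lower and 2 higher on that day, beside 24.8% and 20.4% of all probes. HSPA1B, an inducible chaperone, fell by 2.02 ± 0.12. Heat shock genes were also lower earlier: 5, 6, 7 and 2 at days 10, 17, 24 and 31, with 1, 0, 2 and 1 higher. Of all probes, 8.26%, 5.51%, 15.2% and 6.16% were lower on those days and 9.94%, 7.19%, 16.2% and 6.61% higher. At day 3 in SNU475, 2 heat shock genes and 2 NRF2 targets were lower, beside 1.30% of all probes, HMOX1, the inducible heme oxygenase, among the NRF2 targets (-0.66 ± 0.14).

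The genes whose course was most like the family were sought over the 14 treated groups, as the Pearson correlation between a probe's change against untreated cells and the mean change of the 8 members. Groups of a line share their untreated arrays, and the mean takes in MT1B, MT1G, MT1H and MT1M also where they were not above background, so the correlations are a description of these values and support nothing else. NSDHL, an enzyme of cholesterol synthesis, had the highest correlation at 0.91, followed by SMIM24 at 0.90, DUSP9, a MAP kinase phosphatase, at 0.88, KRT24, a keratin, at 0.86, and MOGAT1, an acyltransferase of triglyceride synthesis, at 0.85. The log2 changes of NSDHL in HepG2 were 0.33, -0.76, 0.75 and 0.65 at days 3, 10, 17 and 24. Among the members, the correlation of each with the mean of the others ran from 0.51 for MT1G to 0.86 for MT1X.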

How the data were processed

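Total RNA of HepG2, SNU398 and SNU475 was measured on Illumina arrays, 2 per group. The values are linear probe intensities, as deposited by the authors; the authors' normalization of them is not stated in any label or header. Their medians fall into 3 sets of arrays (182.91 to 183, 172.65 to 172.73 and 156.27 to 156.33). Another deposited table has 72 columns named by barcode that no label ties to a sample, and these were not used.

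Intensities were background corrected with limma 3.58.1 (R 4.3.3; normexp, offset 50), quantile normalized over 34 arrays and put on the log2 scale; the deposited values were not on a log2 scale. Background was set at 6.97, a mode of 6.48 plus 1.645 times a spread of 0.298. In all, 20999 probes with 1 symbol, of 15297 genes, above background in at least 1 group were tested in a fit of 17 group means (residual df 17, prior df 11.03). Benjamini-Hochberg adjustment ran over all tested probes in each of 31 comparisons, and a probe was called below an adjusted p of 0.05. The number of arrays limits precision.

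Member probes above background in untreated cells of each line used were counted: 8 in HepG2, 5 in SNU398 and 4 in SNU475. A probe that passed only where it was high is given as a bound and enters no member count, though the mean behind the most similar genes includes it. This counting set was chosen after the data were seen. Members, lists and tests were chosen with earlier results of these data known. All members are named; of the other lists, MTF1 and SLC30A1 always and otherwise the called gene with the largest change in a comparison, plus the 5 genes most like the family. Gene symbols come from the probe annotation, updated with RefSeq: of 47230 probes 30113 had 1 symbol, 8 several and 17109 none, and 30074 matched. Promoters of 4 of the 9 members matched. The fit was tested on simulated data. Alternatives were another background correction, scaling, filter and probe choice, a fit per line, a replicate block and leaving out each array.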

Additional observations from a re-analysis of the deposited data

Results flagged for a closer look

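The mean response over days 3, 10, 17 and 24 differed between lines for 6 member results in a direct test with limma. In HepG2 this mean offsets the higher days against day 10, when most counted member probes were lower. Between HepG2 and SNU398, the log2 difference in change was -0.93 for the brighter MT1E probe (SE 0.17, adjusted p = 1.17e-04), 1.11 for MT1F (SE 0.16, adjusted p = 4.44e-06) and 1.60 for the brighter MT1H probe (SE 0.21, adjusted p = 6.22e-07). Between SNU398 and SNU475 it was 0.57 for the brighter MT1E probe (SE 0.17, adjusted p = 0.0115), -1.37 for MT1F (SE 0.16, adjusted p = 1.46e-07) and 0.75 for MT2A (SE 0.19, adjusted p = 0.00241). In the tests that set SNU398 against another line, the MT1F change was thus the lower in SNU398. That of the brighter MT1E probe was the higher there. The dimmer MT1E probe, not above background in untreated SNU398 or SNU475, was not counted in these tests. Untreated and treated SNU398 arrays lie in different array sets, so line, set and treatment cannot be told apart here.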

How the results depend on the processing

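Across the 31 comparisons, the count of called member probes stayed within 1.5 times the main count under each setting, with these exceptions. SNU398 day 3 against untreated, 1 in the main fit, gave 2 with no further background correction, 3 with median scaling, 3 with the deposited values as they are and 2 with probes above background on all 34 arrays. SNU475 day 17 against untreated, 1 in the main fit, gave 2 with the deposited values (1 higher and 1 lower), 2 with the 34-array filter and 2 with the line fitted on its own. The HepG2 and SNU475 mean responses differed for 1 of 4 probes with the deposited values, against 0. The filter on all 34 arrays leaves 4 member probes by construction, which gave 4 at HepG2 day 3, 4 lower at day 10, 4 at day 17, 2 at day 24, 4 lower for day 10 over day 3, 4 for day 17 over day 10 and 4 lower for day 24 over day 17. The HepG2 against SNU398 mean response turned to 1 higher and 2 lower, 3 called of 4: the MT1H probe is not among the 4, and MT2A gained a call, as it also did with no further background correction, median scaling, the deposited values and one probe a gene. Leaving out single arrays moved these counts past 1.5 times: SNU398 day 3 ran from 1 to 3, day 24 from 1 to 2, day 10 over day 3 from 0 to 3, day 17 over day 10 from 1 to 4 and day 24 over day 17 from 3 to 5. Untreated SNU398 against SNU475 ran from 1 to 3, SNU475 day 31 from 1 to 3, day 10 over day 3 from 1 to 2 and day 24 over day 17 from 1 to 2. In the other comparisons the counts kept within 1.5 times; for HepG2 they ran from 5 to 7 at day 3, 5 to 6 at day 10, 8 at day 17 and 4 to 5 at day 24. The cause was not tested. No single member probe changed direction where called in any setting. With a replicate block all 31 counts stayed within 1.5 times of the main ones, for example 8 at HepG2 day 17, and 1 single-probe call was gained and 2 lost. Deviations of arrays with the same number correlated at -0.10 to 0.18 in HepG2, -0.14 to 0.06 in SNU398 and -0.05 to 0.07 in SNU475, so little effect was shared by number over all tested probes. Whether arrays with the same number come from the same culture cannot be told from this, and the labels do not say. Intensities near the top of the scale in HepG2 and near background in SNU398 and SNU475 limit the size of changes there.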
